A study of Mus musculus with 12 samples.

Results

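Interferons are secreted signals of infection. They act through receptors and Janus kinases on the STAT transcription factors, which together with interferon regulatory factors switch on antiviral genes and the machinery that cuts proteins into peptides and presents them on MHC class I molecules at the cell surface. In skeletal muscle fibres this programme is usually low, and class I molecules are known to rise in inflamed muscle. The 38 genes described here cover its transcription factors, antiviral effectors, the ISG15 system, interferon-induced GTPases, immunoproteasome, peptide transporters and class I chains. They were chosen by gene name, with earlier results of these data known. Every probe with 1 of these symbols in the platform annotation was taken, which gave 75 of the 45281 probes on the array.

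Expression was compared between skeletal muscle of transgenic mice that overexpress the nuclear receptor Nur77 (encoded by Nr4a1) in this tissue (TG) and of wild-type mice (WT). All mice had been fasted overnight, and the sample titles carry the tissue name "Gastr". RNA of 2 mice was combined in each pool, which gave 3 TG and 3 WT pools from 6 mice per genotype. Each pool was hybridised to 2 arrays, which the sample titles number rep1 and rep2. The rep1 arrays are called chip 1 here and the rep2 arrays chip 2. The pool is the replicate throughout (n = 3 per genotype). Strain, age and sex of the mice, and the promoter that drives the transgene, are not stated in the labels. All 5 markers of skeletal muscle tested (Ckm, Acta1, Myh4, Tnnt3 and Mb) were detected on all 12 arrays. Of these Myh4 fell (-0.22 ± 0.06, adjusted p = 0.0359 by limma). The other 4 did not pass (Ckm 0.11, Acta1 0.17, Tnnt3 -0.15 and Mb -0.03). The summed deposited signal of the 5 was 228764, 232125 and 220929 in TG pools, against 190974, 202911 and 212986 in WT pools. Between 17607 and 19118 probes were detected per array. The Nr4a1 probe was detected on 0 of 12 arrays and gave no check of the labels.

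Signals are given as the deposited linear intensities, averaged over the 2 arrays of a pool. Differences are TG minus WT on the log2 scale after background correction and quantile normalisation, with standard errors and adjusted p-values by limma over all 15708 probes kept. Because the correction adds an offset, differences of dim probes are smaller than their signals would give. Where a gene had several probes, the brightest one that passed the detection filter stands for it, and signals of different genes were not set against each other, since probes differ in brightness.

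Some arrays stood apart before any of these genes was compared. The summed signal of 7 macrophage and monocyte markers was 1410, 1619 and 7589 in the 3 TG pools, against 3019, 778 and 816 in the WT pools, so pool TG3 lay far above the other pools. Pool WT1 was divided against itself: the same sum was 5351 on its chip 2 array and 687 on its chip 1 array. By pool the genotypes overlapped, since WT1 lay above TG1 and TG2. Without that chip 2 array the sum was 1373 to 7666 on the 6 TG arrays, against 543 to 1012 on the 5 other WT arrays. The array was set apart by this same sum, and the 2 arrays of a pool repeat the same RNA, so these ranges are a description only. Of the 7 macrophage genes 6 were tested, all 6 had a positive difference (0.41 to 1.40, median 0.82), 0 passed by limma and 1 (Lyz2) had an unadjusted p under 0.05. The remaining gene, Itgam, was detected on 0 arrays. Each of the 4 MHC class II presentation genes was called higher in TG by limma, where 12.1% of all tested genes were. Their differences were 1.307 to 1.655 (median 1.49), against at most 1.06 among the tested members of the 38 genes. Their summed signal was 4823, 5648 and 14503 in TG pools, against 3368, 2126 and 2701 in WT pools. The 3 general leukocyte markers summed to 2014, 2423 and 8052 in TG pools, against 4003, 953 and 1217 in WT pools. Of these Coro1a (0.99 ± 0.44) and Laptm5 (1.31 ± 0.52) did not pass by limma, with an unadjusted p under 0.05 for Laptm5, and Ptprc was detected on 0 arrays. All 4 tested endothelial genes had a positive difference at the brightest probe (0.13 to 0.35), and Pecam1 was called higher (0.35 ± 0.11, adjusted p = 0.045 by limma). The other tested Pecam1 probes did not pass (-0.08 ± 0.08 and 0.12 ± 0.08). A second Cdh5 probe was called higher (0.44 ± 0.08, adjusted p = 0.00753 by limma), and its brightest was not. Of 4 tested fibroblast genes 0 passed and 0 had an unadjusted p under 0.05 at the brightest probe. Their differences were 0.36 ± 0.21 for Pdgfra, 0.31 ± 0.31 for Col1a1 and -0.02 ± 0.08 for Dcn. The largest was that of Col3a1 (0.93 ± 0.46), with 416, 438 and 1889 in TG pools, against 727, 288 and 326 in WT pools. The T-cell markers Cd3e, Cd3g and Cd8a were detected on 0 arrays. The counts below are therefore also given with WT1 from chip 1 only and without TG3, and the part of these cell types in the results was not tested. In whole muscle, more cells of a type and more RNA per cell cannot be told apart.

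The binding site through which STAT and IRF factors act on many interferon-induced genes is the interferon-stimulated response element. Its core letters were found in some of the promoters of the 38 genes. Promoter windows of 300 bases, from 250 before to 50 after each RefSeq start site (build GRCm38.p6), were found for 30 of the 38 genes (36 windows). The core letters GAAANNGAAA, on either strand, occurred in 13 of these 36 windows (36.1%), against 3.44% of all 32851 promoter windows of this length. These 13 windows belonged to 13 genes, and 5 of the 13 genes called higher in TG that had a window held a match. The other genes with a match were Ifit1, Oas1a, Stat2 and Ifih1, not tested, and Igtp, Gbp2, Gbp3 and Irgm1, which did not pass. The letters TTCNNNGAA of the gamma-activated site occurred in 8 windows (22.2%), against 8.3% of all windows. A match of letters describes the window only. The windows shown are examples picked among those that held a match. They run 5′ to 3′ on the gene's strand, with each match to the first motif, on either strand, in capitals. In Isg15 the capitals are 3 overlapping matches.
Rsad2 (chr12:26456403-26456702, strand -): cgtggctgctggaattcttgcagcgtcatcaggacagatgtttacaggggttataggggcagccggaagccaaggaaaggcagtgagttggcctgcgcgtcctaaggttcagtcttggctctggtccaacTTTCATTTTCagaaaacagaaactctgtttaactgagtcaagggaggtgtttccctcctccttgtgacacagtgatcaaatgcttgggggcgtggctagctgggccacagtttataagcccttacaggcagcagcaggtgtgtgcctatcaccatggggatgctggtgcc
Isg15 (chr4:156200769-156201068, strand -): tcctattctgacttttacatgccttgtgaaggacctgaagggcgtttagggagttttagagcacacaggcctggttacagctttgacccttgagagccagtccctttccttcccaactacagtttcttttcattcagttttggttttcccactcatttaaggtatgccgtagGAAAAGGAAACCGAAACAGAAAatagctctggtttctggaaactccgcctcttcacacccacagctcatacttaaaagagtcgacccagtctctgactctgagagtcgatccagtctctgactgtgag
Ifit3 (chr19:34583279-34583578, strand +): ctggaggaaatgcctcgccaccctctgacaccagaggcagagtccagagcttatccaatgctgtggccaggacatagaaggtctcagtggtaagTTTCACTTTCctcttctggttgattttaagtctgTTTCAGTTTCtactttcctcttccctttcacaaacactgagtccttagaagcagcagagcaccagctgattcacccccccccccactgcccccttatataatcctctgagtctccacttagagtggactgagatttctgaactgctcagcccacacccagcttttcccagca
B2m (chr2:122147437-122147736, strand +): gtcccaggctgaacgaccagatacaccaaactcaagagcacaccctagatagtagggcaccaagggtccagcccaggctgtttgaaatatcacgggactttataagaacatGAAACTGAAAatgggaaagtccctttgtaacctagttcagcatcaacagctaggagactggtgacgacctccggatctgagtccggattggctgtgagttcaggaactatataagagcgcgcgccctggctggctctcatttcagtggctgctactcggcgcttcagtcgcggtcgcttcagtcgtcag
Gbp2 (chr3:142620413-142620712, strand +): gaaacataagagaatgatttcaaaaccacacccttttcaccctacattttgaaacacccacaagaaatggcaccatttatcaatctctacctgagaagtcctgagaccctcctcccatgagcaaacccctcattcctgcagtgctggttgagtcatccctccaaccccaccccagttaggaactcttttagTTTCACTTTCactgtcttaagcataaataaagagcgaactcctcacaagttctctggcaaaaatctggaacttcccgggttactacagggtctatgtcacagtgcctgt
The Rsad2 match starts 120 bases before the start site, that of B2m 139 bases and that of Gbp2 59 bases before it. Rsad2, Isg15, Ifit3 and B2m were called higher in TG, and Gbp2, with the same letters, was not. The windows of Ifit1 and Oas1a, whose probes were detected on 0 arrays, also held matches. The windows of all 3 immunoproteasome genes, which were called, held 0 matches to the first motif. Those of Irf9, Ifit2, Oasl2, H2-D1 and Trim25, also called higher, held 0 as well.

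Of the 38 genes, 27 had at least 1 probe detected on all 6 arrays of a genotype and were tested. By limma, 15 rose, 0 fell and 12 did not pass, against a background of 12.1% of all 9131 tested genes called higher and 15.9% called lower. Because Tapbp and Dhx58 entered the test only through detection in TG, the 25 genes detected on all 12 arrays are also given: the same 15 rose and 10 did not pass. All 27 differences were positive, from 0.05 for Irgm1 to 1.06 for Ifi27l2a, as were those of the 25 genes detected on all 12 arrays. The median of the 27, which includes Tapbp and Dhx58, was 0.39, against -0.02 over all tested genes. Because the genes were chosen with earlier results of these data known, these shares and medians are a description only. Without any filter on dim probes all 38 genes could be tested, of which 13 rose by limma (34.2%), against 5.58% of all genes called higher in that fit.

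The rises were modest in size, and many calls depended on single pools. Without WT2 5 members passed, against 6.52% of all genes called higher in that fit. Without TG2 6 passed (8.5% of all genes), and without WT1 7 passed (7.75% of all genes). Without WT3 12 passed (7.88% of all genes), 9 of them among the 15, and without TG1 12 passed (10.1% of all genes). On chip 1 alone 6 of 27 passed (10.7% of all genes called higher) and on chip 2 alone 10 of 30 (4.68%). Without TG3, the pool with the high macrophage sum, 13 passed, of which 12 were among the 15, against 14.1% of all genes called higher. With WT1 from chip 1 only 15 passed (13.5% of all genes), 14 of them among the 15, and with TG3 left out as well 12 passed (15.5% of all genes), 11 of them among the 15. The median of the tested members was then 0.32. In the authors' deposited values 8 members passed (7.59% of all genes called higher), and with the pool numbers as a block 13 passed (9.57% of all genes).

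**Figure D1:**
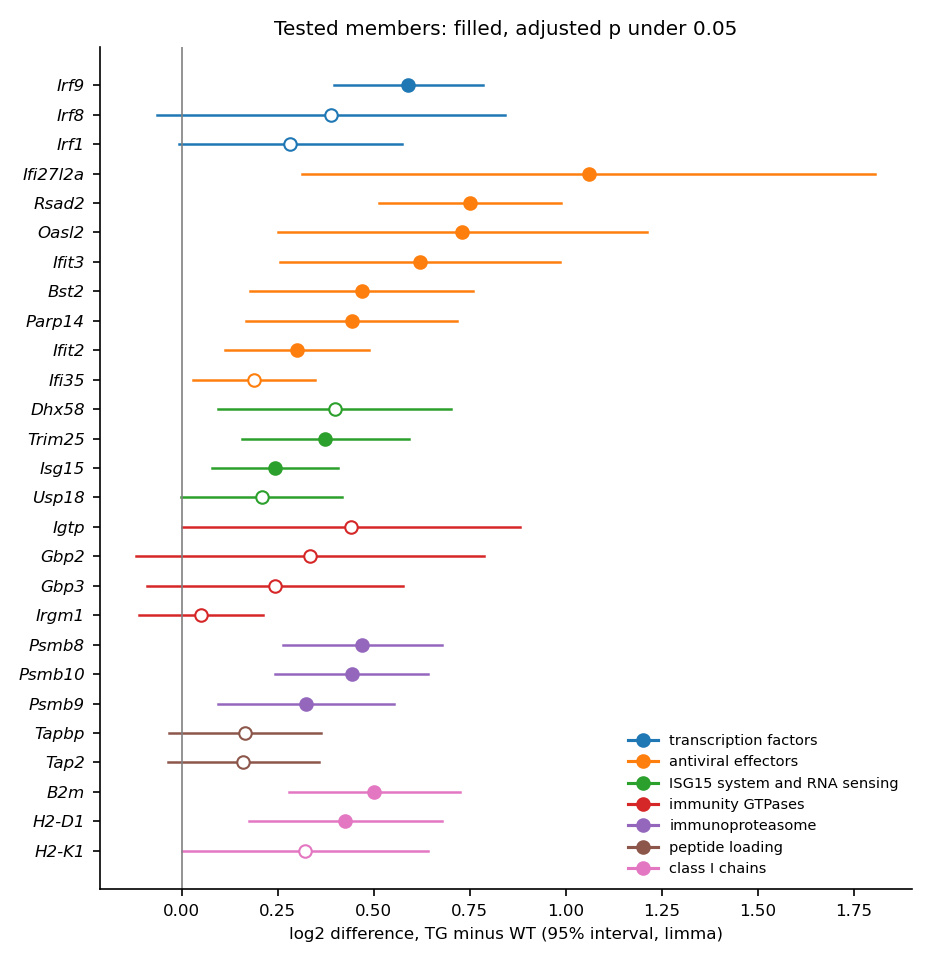
Log2 differences, TG minus WT, of the 27 tested genes with 95% intervals by limma (n = 3 pools per genotype), coloured by role and filled where the adjusted p was below 0.05. Every point lies right of 0, and the filled points include all 3 immunoproteasome genes and 0 of the 4 GTPases. Over all tested genes 12.1% were called higher.

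Among the transcription factors, Irf9 rose. IRF9 is the DNA-binding subunit of a complex that type I interferon activates. Its signal was 110.2, 133 and 159 in the 3 TG pools, against 73.2, 56.0 and 71.4 in the 3 WT pools. The groups did not overlap, and the difference was 0.59 ± 0.08 (SE, adjusted p = 0.0024 by limma, n = 3). Irf9 kept its call under all 20 alternative settings, between 0.54 and 1.01. The probe of Stat2, which joins it in that complex, was detected on 4 TG arrays and 1 WT array and was not tested. Irf7, the factor that amplifies interferon production, was detected on 4 of 6 TG arrays and 0 of 6 WT arrays, with 15.0, 14.7 and 62.0 in TG pools, against 4.8, 5.7 and 6.0 in WT pools. Irf1, an interferon-gamma target that drives class I genes, measured 662, 627 and 850.0 in TG pools, against 632, 524 and 709 in WT pools. These overlapped (0.28 ± 0.13, adjusted p = 0.137 by limma), and the 3 other tested Irf1 probes did not pass either. Irf8, a factor of macrophages and dendritic cells, measured 70.0, 107 and 183 in TG pools, against 99.1, 81.4 and 47.1 in WT pools (0.39 ± 0.20, adjusted p = 0.183 by limma). Its pools overlapped, with the highest value in TG3 and the lowest in WT3.

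The antiviral effectors were the group with most rises: 7 of 8 tested genes rose by limma. Rsad2 encodes viperin, a radical enzyme that blocks replication of many viruses. It measured 835, 784 and 756 in TG pools, against 548, 408 and 523 in WT pools. The lowest TG pool lay well above the highest WT pool, and TG3 was the lowest of its genotype here. The difference was 0.75 ± 0.10 (SE, adjusted p = 0.00201 by limma), or 1.68-fold, and it was called in all 20 alternative settings, between 0.61 and 0.89.

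Ifi27l2a, a small membrane protein strongly induced by type I interferon, had the largest difference of the tested members. It measured 1169, 2249 and 3433 in TG pools, against 1282, 892 and 1002 in WT pools. TG1 lay below WT1 in deposited signal and just above it after normalisation, and the difference was 1.06 ± 0.32 (adjusted p = 0.0458 by limma). It lost its call in 12 of 20 alternative settings, among them those without TG2 (1.00), TG3 (0.72) or any 1 WT pool (0.96 to 1.18). Oasl2, a relative of the oligoadenylate synthetases, measured 191, 207 and 438 in TG pools, against 161, 121 and 135 in WT pools (0.73 ± 0.21, adjusted p = 0.0364 by limma). All TG pools were above all WT pools, and TG3 was far above the other TG pools. Without TG3 the Oasl2 difference was 0.46 and was called, and without any 1 WT pool it was not (0.69 to 0.79).

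The IFIT proteins bind foreign RNA and block its translation. Ifit3 measured 365, 449 and 646 in TG pools, against 296, 238 and 368 in WT pools (0.62 ± 0.16, adjusted p = 0.0249 by limma). TG1 and WT3 were level in deposited signal. The genotypes separated after normalisation. Both tested probes of Ifit2 rose, the brighter with 65.3, 74.7 and 90.9 in TG pools, against 54.1, 37.5 and 54.5 in WT pools (0.30 ± 0.08, adjusted p = 0.0305 by limma), and the other by 0.29 ± 0.09. Ifit2 lost its call in 9 of 20 alternative settings and Ifit3 in 6. The Ifit1 probe was detected on 0 of 12 arrays. Ifit3 has a close copy in the mouse genome, and its probes were not checked against that copy.

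Bst2 encodes tetherin, which holds budding virus particles on the cell surface. It measured 88.2, 152 and 174 in TG pools, against 71.6, 78.4 and 69.8 in WT pools (0.47 ± 0.13, adjusted p = 0.0296 by limma). TG1 was close to the WT pools and the other TG pools were clearly higher. The difference was 0.73 on chip 1 and 0.21 on chip 2, where it was not called. Parp14, an ADP-ribosyltransferase induced by interferon, measured 222, 261 and 324 in TG pools, against 184, 162 and 223 in WT pools (0.44 ± 0.12, adjusted p = 0.0298 by limma). Its second tested probe, which is dim, did not pass (0.09 ± 0.10). Bst2 and Parp14 each lost their call in 8 of 20 alternative settings. Ifi35 measured 163, 175 and 188 in TG pools, against 148, 153 and 153 in WT pools. These did not overlap, yet the difference was small and missed the threshold (0.19 ± 0.07, adjusted p = 0.0808 by limma). The probes of Oas1a, Mx1, Xaf1 and the sensor Ifih1 were detected on 0 of 12 arrays, and those of Oasl1 and Mx2 on at most 3 TG arrays and 0 WT arrays.

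**Figure D2:**
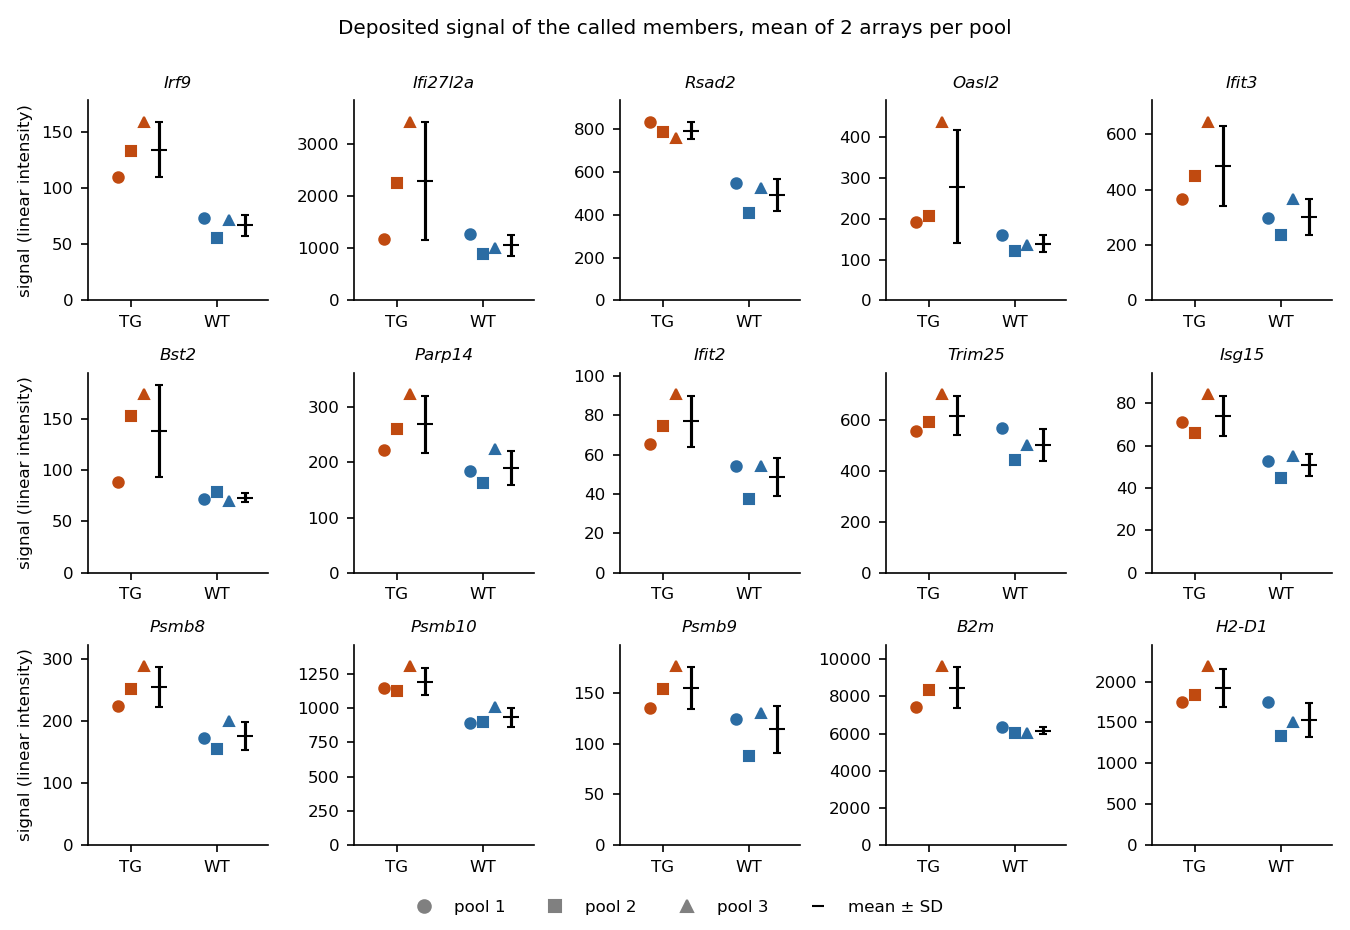
Deposited signals (linear intensity, vertical axes from 0) of the 15 genes called higher in TG, with 1 point per pool (mean of 2 arrays) and the mean ± SD of 3 pools beside them. For Irf9, Rsad2, Psmb10 and B2m the TG pools lie clear of the WT pools, while Ifi27l2a and Oasl2 have a TG3 point far above the rest.

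Isg15 encodes a ubiquitin-like protein that is attached to other proteins after interferon signalling. It measured 71.4, 65.9 and 84.4 in TG pools, against 52.6, 44.8 and 55.0 in WT pools. The pools did not overlap, the difference was 0.24 ± 0.07 (adjusted p = 0.0401 by limma), and it lost its call in 11 of 20 alternative settings. Usp18, the protease that removes ISG15 and dampens the interferon receptor, measured 81.2, 87.3 and 127 in TG pools, against 90.6, 67.0 and 72.2 in WT pools (0.21 ± 0.09, adjusted p = 0.128 by limma). Trim25, a ubiquitin ligase that activates the RNA sensor RIG-I, measured 555, 590.2 and 700.2 in TG pools, against 566, 441 and 499 in WT pools (0.37 ± 0.09, adjusted p = 0.0241 by limma). TG1 was below WT1 in deposited signal, and Trim25 lost its call in 8 of 20 alternative settings. Dhx58, the RNA helicase LGP2, was dim, with 23.6, 25.1 and 72.8 in TG pools, against 11.2, 8.8 and 15.2 in WT pools. The genotypes did not overlap, but the difference of 0.40 ± 0.13 had an adjusted p of 0.0582 by limma. It passed in 8 of 19 alternative settings, among them the one without background correction. Because Dhx58 entered the test only through detection in TG, its pool order and these passes are a description only.

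All 3 inducible catalytic subunits of the immunoproteasome rose by limma. These subunits replace the constitutive ones and cut proteins into peptides suited to class I molecules. Psmb10 measured 1145, 1125 and 1303 in TG pools, against 890.3, 895 and 1009 in WT pools (0.44 ± 0.09, adjusted p = 0.00928 by limma). Its second probe gave 1013, 939.9 and 1163 in TG pools, against 743, 776 and 795 in WT pools (0.51 ± 0.09). Psmb8 measured 225, 252 and 289 in TG pools, against 173, 155 and 200.1 in WT pools (0.47 ± 0.09, adjusted p = 0.00827 by limma), and its second, dim probe did not pass. For both genes, at the brightest probe, every TG pool was above every WT pool. Psmb9 measured 135, 154 and 176 in TG pools, against 124, 87.3 and 130.3 in WT pools (0.32 ± 0.10, adjusted p = 0.0462 by limma). Its TG1 and WT3 pools nearly met, and it lost its call in 15 of 20 alternative settings, whereas Psmb8 and Psmb10 each lost it in 1. Among the constitutive subunits that they replace, Psmb5 (0.14), Psmb6 (0.00) and Psmb7 (0.13), 0 of 3 passed by limma, with 0 at an unadjusted p under 0.05 for these probes and 1 for another Psmb7 probe. The difference between inducible and constitutive subunits was not itself tested, and 0 of 3 is near the 12.1% of all tested genes called higher. The proteasome activator gene Psme2 rose (0.44 ± 0.09), and its partner Psme1 did not pass (0.15 ± 0.07).

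The peptide transporter, which carries peptides into the endoplasmic reticulum, and its loading factor had 0 of 2 tested genes called by limma and 0 at an unadjusted p under 0.05. With 12.1% of all tested genes called higher, 0 of 2 is near that share. Psmb8, Psmb9, Tap1 and Tap2 are neighbours in the MHC region, and Psmb9 and Tap1 start in opposite directions from windows that overlap. Tap1 was detected on 5 of 6 TG arrays and 1 of 6 WT arrays, too few to be tested, with 21.5, 22.1 and 34.5 in TG pools, against 13.2, 3.5 and 14.6 in WT pools. These signals did not overlap but were near background. Tap2 measured 222, 261 and 276 in TG pools, against 259, 201 and 234 in WT pools, which overlapped (0.16 ± 0.09, adjusted p = 0.201 by limma). Tapbp, or tapasin, was dim and did not pass (0.16 ± 0.09). Its difference was 0.56 without background correction and 0.89 in the authors' deposited table, where it did not pass either.

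Of the class I chains, B2m rose in both probes that were detected. B2m encodes beta-2-microglobulin, the light chain shared by all class I molecules. The brighter probe measured 7404, 8365 and 9612 in TG pools, against 6356, 6057 and 6026 in WT pools (0.50 ± 0.10, adjusted p = 0.00857 by limma). The other measured 7854, 8011 and 9873 in TG pools, against 5440.5, 5237 and 5658 in WT pools (0.70 ± 0.10, adjusted p = 0.00235 by limma). No TG pool overlapped a WT pool, and the call held in all 20 alternative settings, between 0.39 and 0.60. H2-D1, a class I heavy chain, rose in 2 of 3 tested probes and lost its call in 6 of 20 alternative settings. Its brightest measured 1755, 1832 and 2185 in TG pools, against 1754, 1337 and 1505 in WT pools (0.43 ± 0.11, adjusted p = 0.0251 by limma), so TG1 and WT1 were equal in deposited signal. H2-K1, another heavy chain, measured 267, 338 and 426 in TG pools, against 348, 246 and 247 in WT pools (0.32 ± 0.14, adjusted p = 0.127 by limma), and its dim second probe had -0.06 ± 0.07. Mouse class I heavy chains are near-identical in long stretches and vary between strains, so which chain these probes report is uncertain.

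Of the 5 interferon-induced GTPases among the 38 genes, 4 were tested and 0 passed by limma. Over all tested genes 12.1% were called higher, so 0 of 4 is near that share. By limma 2 had an unadjusted p under 0.05 counting all probes and 1 counting 1 probe per gene. The GTPase Irgm2, outside the 38, was called higher (0.49 ± 0.14). Interferon-induced GTPases attack the membranes that enclose intracellular microbes and are classed as targets of interferon gamma. Igtp measured 113, 149.8 and 204 in TG pools, against 66.6, 83.9 and 157 in WT pools (0.44 ± 0.19, adjusted p = 0.127 by limma). Gbp2 measured 418, 463 and 459 in TG pools, against 309, 282 and 623 in WT pools (0.33 ± 0.20, adjusted p = 0.242 by limma). Both tested Gbp3 probes had their highest signal of all 6 pools in WT3 too, with 113, 133 and 152 in TG pools, against 79.8, 90.6 and 165 in WT pools for the brighter. In all 3 genes WT3 was well above the other WT pools and above at least 1 TG pool. With WT3 left out Igtp (0.65), Gbp2 (0.59) and Gbp3 (0.415) each passed, where 7.88% of all genes were called higher. WT3 was singled out here by its high values in these same genes. Leaving it out raises their differences in any case, so these passes are a description only. Irgm1 differed little (8211, 7994 and 7446 in TG pools, against 7848, 7783 and 7631 in WT pools, 0.05 ± 0.07, 95% interval -0.11 to 0.21). The probes of Iigp1 were detected on at most 1 TG array and 1 WT array.

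The pools of a genotype were not alike in these genes. Among the 27 tested members TG3 was the highest TG pool in 19 (70.4%), and TG1 the lowest in 20 (74.1%). Over all 9131 genes TG3 was the highest in 34.8% and TG1 the lowest in 28.1%. Among the WT pools WT2 was the lowest in 19 members (70.4%), against 30.4% of all genes. In deposited signal the 3 TG pools were above the 3 WT pools for 13 of 27 members, 11 of them called, where 15.7% of all genes had this order. After normalisation 18 members did, against 20.6% of all genes. Dhx58, tested only through its detection in TG, is in both counts. The macrophage sum was likewise lowest in TG1 and highest in TG3 among TG pools and lowest in WT2 among WT pools. It was highest in WT1, through the chip 2 array of that pool. Its part in the spread was not tested.

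**Figure D3:**
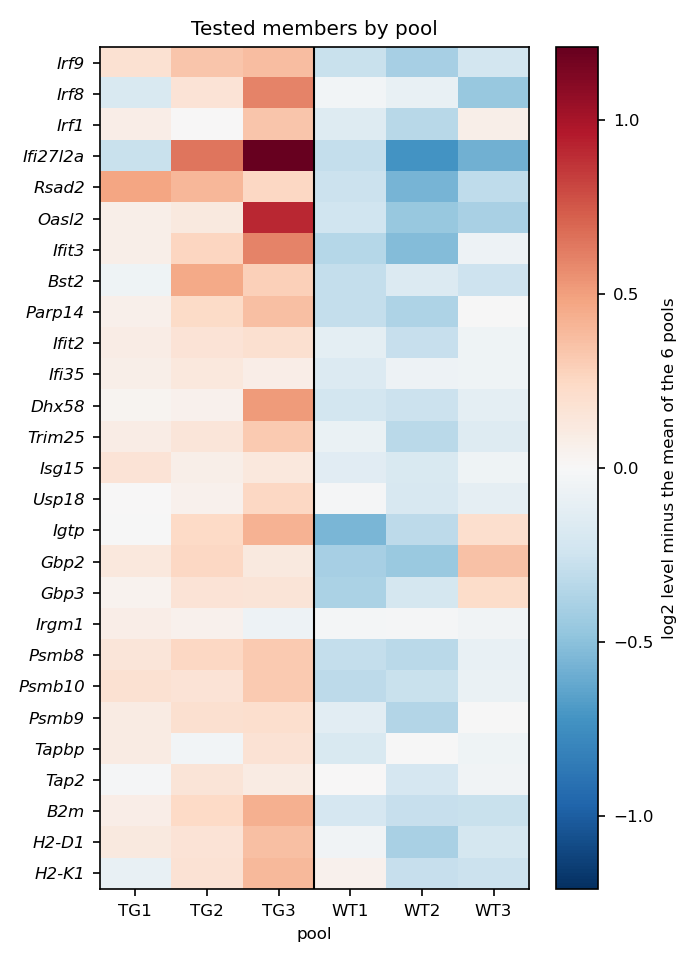
Normalised log2 level of each tested gene in each pool, as the difference from the mean of the 6 pools (TG pools left, WT pools right). TG3 holds the darkest reds, in Ifi27l2a and Oasl2, and WT3 is red for Igtp, Gbp2 and Gbp3.

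The arrays of the same pools on the 2 chips gave similar directions. The difference was positive on chip 1 for 27 of 27 members and on chip 2 for 26, with Irgm1 (-0.03) as the exception, and the medians were 0.35 and 0.38. The chips repeat the same RNA and are not independent samples. For the called members the chip 2 array of WT1, which carried the high macrophage signal, lay between 0.42 below (Rsad2) and 0.45 above (Ifi27l2a) the chip 1 array of that pool in log2 level, and was level with it for Isg15 (0.00).

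**Figure D4:**
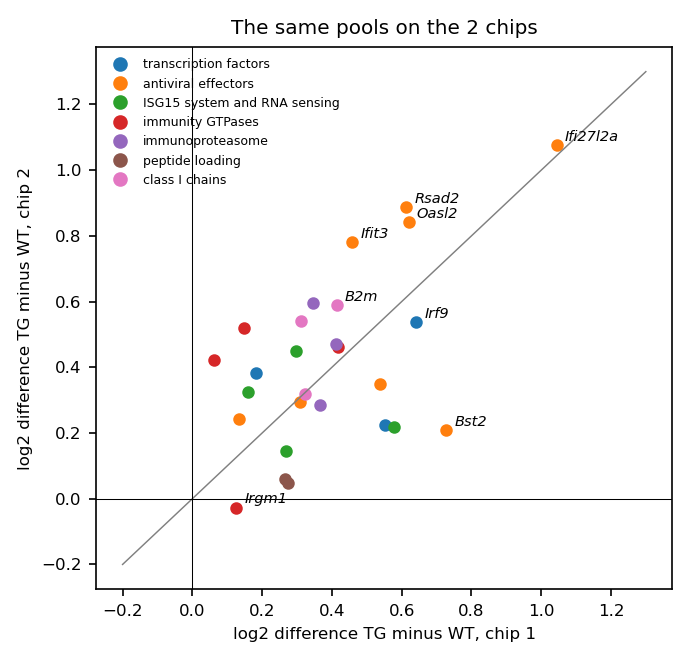
Log2 difference, TG minus WT, of each tested gene on chip 1 (horizontal) and chip 2 (vertical), with the line of equality. Ifi27l2a has nearly the same difference on both (1.04 and 1.08), and Bst2 differs most (0.73 on chip 1 and 0.21 on chip 2).

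A further list of interferon and class I genes outside the 38 held 70 genes with a probe, of which 45 were tested. It too was chosen with earlier results of these data known. By limma 13 rose, 1 fell and 31 did not pass, and the median was 0.14, against the same background of 12.1% of all genes called higher and 15.9% lower. Cgas (0.12), Tlr7 (0.30), Nlrc5 (0.19) and Gbp7 (0.12) entered the test only through detection in TG. Adar (0.02) entered only through detection in WT. They did not pass, and the median includes them. Among 6 tested receptors and kinases 1 rose, Tyk2, a kinase of the type I receptor (259, 269 and 314 in TG pools, against 239, 185 and 190.2 in WT pools, 0.43 ± 0.08, adjusted p = 0.00672). Jak1 had probes that disagreed: the brightest measured 0.07 ± 0.11, whereas another, named after its values were seen, measured 119, 118 and 119 in TG pools, against 19.6, 26.2 and 24.1 in WT pools. Cxcl9, a chemokine typical of interferon gamma that attracts T cells, rose, with 125, 131 and 149 in TG pools, against 43.2, 61.5 and 78.8 in WT pools (0.68 ± 0.11, adjusted p = 0.00476), and kept its call in all 20 alternative settings. Irf5, a factor of macrophages and other immune cells, had the largest rise of this list (1.19 ± 0.26, adjusted p = 0.0144) with 135, 164 and 377 in TG pools, against 106, 38.5 and 49.9 in WT pools. It was high in TG3 and, among WT pools, in WT1, as were the macrophage markers. Irf3, which starts interferon production, was the 1 gene that fell (-0.22 ± 0.07, adjusted p = 0.0499), and it lost its call in 17 of 20 alternative settings.

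Other induced genes of that list rose in 7 of 17 tested. Ifitm3, which blocks entry of enveloped viruses, measured 4944, 5414 and 7068 in TG pools, against 4141, 3485 and 3752 in WT pools (0.66 ± 0.13, adjusted p = 0.0103 by limma, called in all 20 alternative settings). Its relatives Ifitm1 (0.52 ± 0.13, adjusted p = 0.0237 by limma) and Ifitm2 (0.40 ± 0.11, adjusted p = 0.0328 by limma) also rose, and their probes were not checked for shared sequence. So did Cmpk2, a nucleotide kinase that lies beside Rsad2 (0.50 ± 0.10), Uba7, the activating enzyme of ISG15 (0.45 ± 0.11), the GTPase Irgm2 (0.49 ± 0.14) and Eif2ak2, the kinase PKR that senses double-stranded RNA (0.42 ± 0.10). Of these, Irgm2 (adjusted p = 0.0382 by limma) lost its call in 11 of 20 alternative settings, Ifitm2 in 10, Ifitm1 in 6, Uba7 in 5, Eif2ak2 in 4 and Cmpk2 in 1. In the class I pathway the heavy-chain relatives H2-T23 (0.41 ± 0.08) and H2-M3 (0.39 ± 0.11) rose, and they lost their call in 3 and 10 of 20 settings. Among sensors and adaptors 0 of 5 passed by limma, where 12.1% of all tested genes were called higher, and 0 had an unadjusted p under 0.05.

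**Figure D5:**
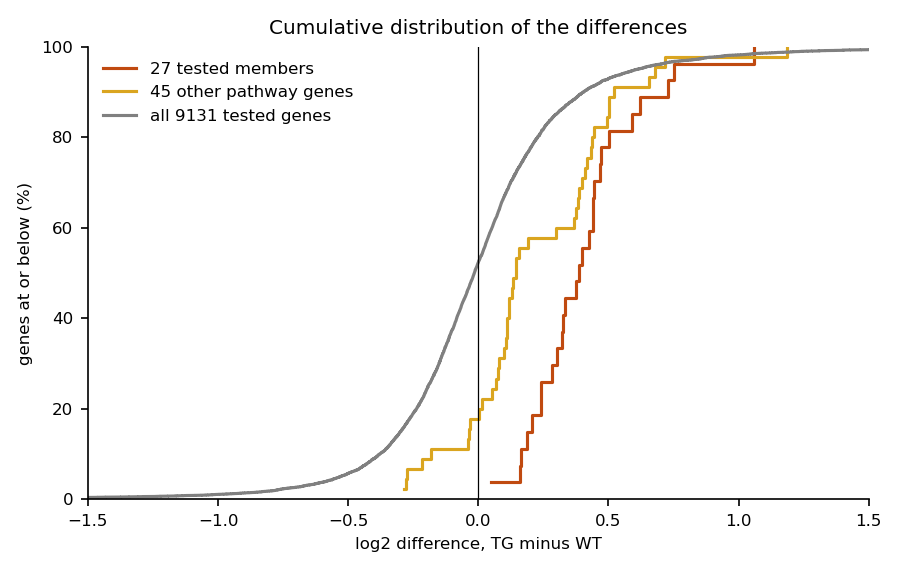
Cumulative share of genes (vertical, percent) at or below each log2 difference, TG minus WT (horizontal), for the 27 tested members, the 45 other pathway genes and all 9131 tested genes. The curve of the members starts at 0.05, and 47.6% of all genes lie right of 0.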

How the data were processed

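Single-colour Illumina mouse WG-6 BeadChips were used, per the labels. Probe intensity was deposited as non-normalized signals, yet 29.3% to 32.8% of them per array were below 0 and the mean was 472.135 on all 12 arrays, so they had been background-subtracted and scaled. A detection score was deposited by the authors for each signal. The file headers name it a p-value, but it rose with the deposited signal (Spearman at least 0.975), so the detection p was taken to be 1 minus it. The authors' deposited table holds log2 values and was rebuilt within 0.00109: signals under 1 were set to 1, and the array's 75th percentile and the probe's median were subtracted after the log. The software that made these files is not given in the sources used here.

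Signals were corrected by normexp (offset 50), quantile normalised and put on the log2 scale, and the 2 arrays of a pool were averaged. A probe was kept where every one of the 6 arrays of at least 1 genotype had a detection p under 0.05 (15708 probes, 9131 genes). The test was limma 3.58.1 (R 4.3.3), with lmFit and eBayes on 6 pool means, two-sided; p-values were adjusted by Benjamini-Hochberg across these probes, with 0.05 as the limit. Tested on simulated data, the fit recovered fewer of the small changes than of the large ones and missed the recovery first required of it, which was then relaxed, so a gene that did not pass may still differ. Precision is limited by 3 pools per genotype. Gene names came from the platform annotation (34885 probes with 1 symbol, 18 with several, 10378 with none). The 38 genes and all lists were chosen with earlier results of these data known. In the further list Ifi44, Ifi203, Herc6 and Ddx60, and among markers Cd68, Cd79a and Hbb-b1, were not analysed here, and some other items are not reported here. Promoter sequences are RefSeq's, build GRCm38.p6.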

Additional observations from a re-analysis of the deposited data

How the results depend on the processing

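Each count was recomputed under 20 alternative settings. The 3 genes Rsad2, Irf9 and B2m kept their call in all 20, and 26 of the 27 tested genes kept a positive difference. The exception was Irgm1, with -0.0267 on chip 2 alone and -0.00644 with the mean of all kept probes. The 15 members called higher became 8 with the authors' deposited table (7.59% of all genes called higher) and 6 using chip 1 by itself (10.7%). They were 5 to 13 when single pools were left out (6.52% to 14.1% of all genes). The 13 further pathway genes called higher became 7 with the authors' deposited table, 7 using chip 1 and 3 using chip 2 by itself (4.68% of all genes on chip 2). They were 6 to 15 when single pools were left out, beside the same shares of all genes as for the members. The 1 further gene called lower became 4 with 75th percentile scaling (20.3% of all genes called lower) and 3 with 12 arrays and the pool as a random block (18.8%). It became 0 without background correction, with neqc, cyclic loess, the authors' deposited table, no filter, chip 2 alone, the mean of all kept probes, WT1 from chip 1 only, with or without TG3, and whenever a single pool was left out. The pool numbers are only names. With them as a replicate block 13 members and 13 further genes were called higher (9.57% of all genes), and 0 further genes lower (11.9% of all genes). Deviations of same-numbered pools correlated at -0.417, 0.342 and -0.119. The causes were not tested. Over all genes, calls that were higher made up 43.3%, 50.9% with cyclic loess, 38.1% in the deposited table and 32.8% after scaling to the 75th percentile. Genes near background have no usable value: of 17 probes of the 11 untested members, 10 were detected on 0 arrays.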

Other observations

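With no filter on dim probes, 0 of the 11 members left untested in the report passed by limma, 2 had an unadjusted p under 0.05, and their values are near background. Tap1 had a log2 difference of 0.26 ± 0.07 (SE, adjusted p = 0.0637 by limma with no filter on dim probes) and Irf7 of 0.38 ± 0.14 (adjusted p = 0.138). Differences of Ifit1 (-0.02), Ifih1 (-0.02) and Iigp1 (-0.05) were negative and smaller than their errors.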
